A study of Drosophila melanogaster with 12 samples.

Results

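The comparison of *dSTING* mutant with control males under fed conditions covers 6 of the 12 arrays of the study, 3 of each genotype, and all genes on the array. The arrays were chosen by genotype and diet as labelled (dSTINGknock, fed, against w1118, fed), not by any measured value. All flies were males, 5 days old, that had spent 4 days on regular food. Each sample was total RNA from whole bodies of 10 males, hybridised to an Affymetrix Drosophila gene array, which reports 1 signal per gene on the log2 scale. The other 6 arrays hold males of the same genotypes that were starved for 24 hours, and they share no sample with the fed ones. The mutant allele, *dSTINGΔ*, is a deletion made by imprecise excision of a transposon, and the control was the *w1118* stock. With 1 mutant stock and 1 control stock, the effect of the allele and other differences between the stocks cannot be told apart. The labels number 3 replicates per group without saying whether they came from separate cultures, so the tests measure the spread between these samples, which may be technical.

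STING is a protein of the endoplasmic reticulum membrane that binds cyclic dinucleotides and signals in innate immunity. In flies it acts through the NF-κB factor Relish, and the fat body, the gut and the Malpighian tubules are also the organs where insects clear foreign and waste compounds. In that process cytochrome P450 enzymes oxidise a compound, glutathione S-transferases and UDP-glycosyltransferases attach a soluble group to it, and membrane transporters move the product out of the cell. Genes of these families stand in clusters of duplicated neighbours, and several are known for strong responses to diet, drugs and insecticides. Gene groups named for lipid, immune or neuronal functions are left aside here, and the remaining gene families are described. Some of these hold genes with such roles, such as the markers of blood cells.

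The deleted gene was examined first. *dSTING* (CG1667, *Sting* in the reference annotation) gave 5.44, 6.28 and 5.82 in the control arrays and 2.38, 1.98 and 2.38 in the mutant arrays. All mutant arrays lay below all control arrays, the direction that the labels imply. The difference, mutant mean minus control mean, was -3.60 (standard error, SE, 0.18), a 12.2-fold lower signal, with an adjusted p of 7.54e-08 from limma. Here and below, the adjusted p comes from 1 limma model of all 12 arrays, with Benjamini-Hochberg adjustment over 13554 genes, and a gene is called, or said to rise or fall, at an adjusted p under 0.05.

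The genes on either side of *dSTING* were mostly near their control level. Of the 5 annotated neighbours on each side, 1 rose and 1 fell. *CG1663* rose by 0.36 (SE 0.08, adjusted p = 0.0099, and 0.0677 with the 6 fed arrays alone). *Orc6*, the next gene by start position, overlaps the end of *dSTING* in the annotation (start at 9845458, against a *dSTING* end at 9845512). It encodes a subunit of the origin recognition complex that starts DNA replication. It measured 4.27, 4.19 and 4.33 in control arrays and 3.84, 3.79 and 3.61 in mutant arrays. These do not overlap, which holds in this direction for 13.7% of all genes. The difference was -0.52 (SE 0.11, adjusted p = 0.0102, and 0.0515 without mutant array 6). *Vamp7*, a membrane fusion protein and the neighbour on the other side, differed by 0.00 (adjusted p = 0.996). *Prosalpha7*, a proteasome subunit, differed by -0.27 (adjusted p = 0.0867), and *CG1665* by -0.31 (adjusted p = 0.112). The other neighbours, *hebe*, *Lsm11*, *CG1671*, *CG1516* and *CG30010*, lay between -0.15 and 0.04.

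In all, 1690 genes were called, which is 12.5% of those tested, 841 higher (6.20%) and 849 lower (6.26%) in the mutant. A change over 1.4-fold was found for 448 of the higher (3.31% of all genes) and 572 of the lower genes (4.22%), a change over 2-fold for 86 and 153, and a change over 8-fold for 5 and 10. The median difference over all genes was -0.01. Called or not, 14.4% of genes had all mutant arrays above all control arrays, and 13.7% had all of them below. The count depended on single arrays, with 1116 genes without control array 3 (552 higher and 564 lower), 1091 without mutant array 5 (504 and 587), 962 without mutant array 6 (446 and 516) and 1170 without mutant array 4 (543 and 627). Whichever array was left out, 346 of the higher and 431 of the lower genes were called, and this smaller number is given beside most counts of gene families below. Control arrays 1 and 3 lay farther from their group mean (root mean square deviation over genes 0.209 and 0.199) than control array 2 (0.154) and the mutant arrays (0.126 to 0.134). In whole-body RNA, fewer cells of a type and less RNA per cell cannot be told apart, and this holds for every result below.

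The largest changes were those of single genes rather than of whole families. The largest rise was that of *tRNA:CR30298*, a threonine transfer RNA, at 3.16, 3.06 and 2.98 in control arrays against 8.72, 8.58 and 8.30 in mutant arrays, a difference of 5.46 (SE 0.14, adjusted p = 1.19e-10). The largest fall was that of *CG32581* (*sordd2* in the reference annotation), annotated as a ubiquitin-protein transferase, at 8.28, 8.58 and 8.76 in control arrays against 2.25, 2.18 and 2.19 in mutant arrays. This was a difference of -6.33 (SE 0.14, adjusted p = 3.88e-11), or 80.7-fold. Both genes were therefore at a middle or high signal in one genotype and near the bottom of the array's range in the other.

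Several other falls had the same form. *CG13675*, annotated as a chitin-binding protein, fell from 7.68, 7.67 and 7.41 to 2.77, 2.85 and 2.76, and *CG14957*, with the same annotation, from 5.67, 6.18 and 5.02 to 2.06, 2.24 and 2.13. *CG14369*, with no annotated function, fell from 5.99, 6.38 and 6.88 to 2.34, 2.23 and 2.23. *CG11023*, which the reference annotation holds as a pseudogene, fell by 3.42, and *CG18853*, annotated as a DNA photolyase, by 3.14. The mutant arrays read at most 2.88 for each of these genes, in the range of the lowest 25% of the table, whose genes average at most 4.36.

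Among the 25 largest rises, *Qtzl*, a chimeric gene known as *Quetzalcoatl*, rose by 3.85 (SE 0.27, adjusted p = 2.22e-06), from 3.28, 3.64 and 4.54 to 7.89, 7.43 and 7.67. *CG33346*, annotated as a nucleic acid hydrolase, rose by 3.54. *CG17751*, annotated as an organic cation transporter, rose by 2.45, and *PK1-R*, the receptor for the neuropeptide pyrokinin 1, by 1.95. *SoYb*, a helicase-like protein of the transposon-silencing small RNA pathway, rose by 1.82, from 3.29, 3.25 and 3.25 to 5.34, 4.93 and 5.00. The 25 were taken only from called genes whose arrays do not overlap. Every mutant array therefore lies above every control array by that rule.

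**Figure D1:**
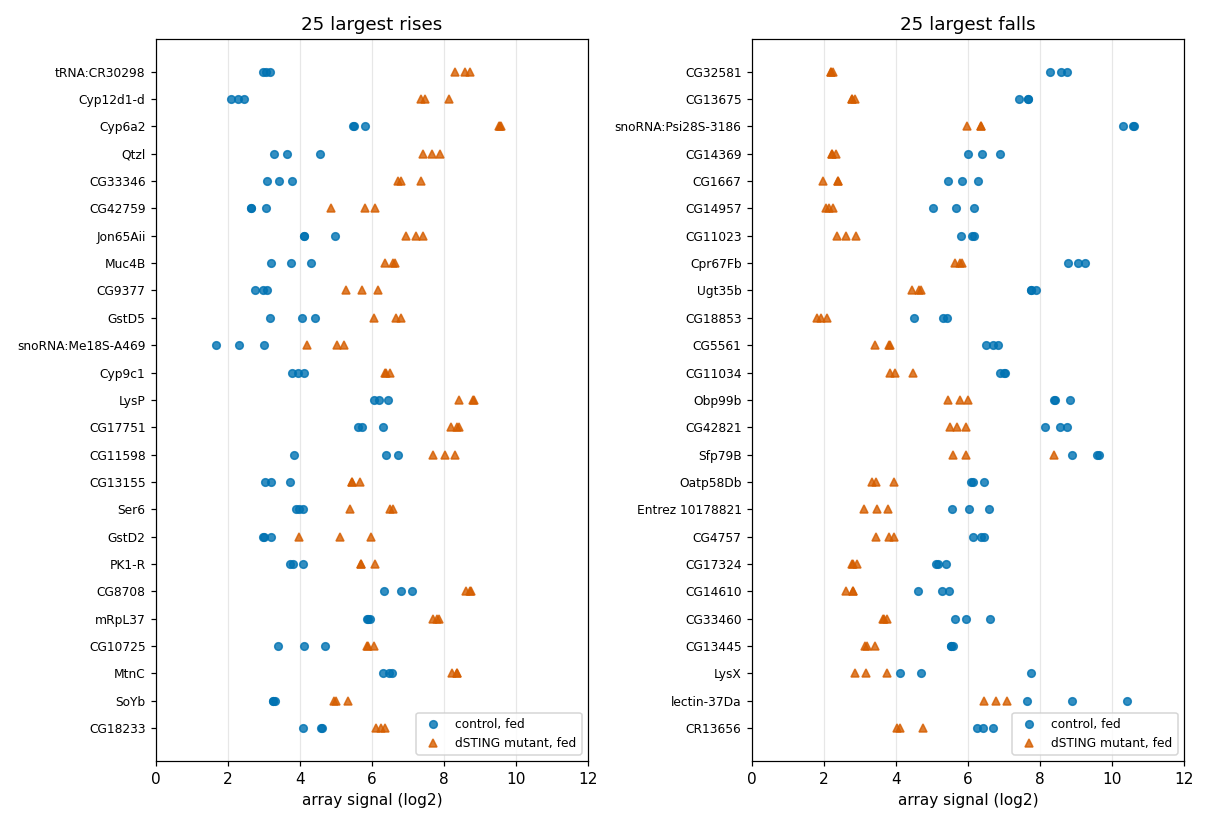
Array signal (log2) of the 25 genes with the largest rises (left) and the 25 with the largest falls (right) that were called and had no overlap of the arrays, with 1 circle per control array and 1 triangle per mutant array. Most falls end near a signal of 2 to 4, and *CG32581* runs from between 8.28 and 8.76 down to between 2.18 and 2.25.

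The cytochrome P450 family had more falls than rises. These haem enzymes oxidise hormones, fatty acids and foreign compounds. Of 80 measured members, 24 fell (30.0%, against 6.26% of all genes) and 8 rose (against 6.20% of all genes), and the family's median difference was -0.08. Whichever array was left out, 15 of the falls and all 8 rises were called. The largest rises exceeded the largest fall in size. *Cyp12d1-d*, a mitochondrial P450 known from insecticide-resistant flies, gave 2.08, 2.27 and 2.44 in control arrays and 7.35, 8.13 and 7.47 in mutant arrays, a rise of 5.39 (SE 0.20, adjusted p = 3.64e-09), or 41.9-fold. Its near-identical copy *Cyp12d1-p* differed by -0.18 (adjusted p = 0.643), and how the array's probes divide between the copies is uncertain.

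*Cyp6a2*, also known from resistant strains, rose from 5.50, 5.46 and 5.81 to 9.54, 9.56 and 9.59, a difference of 3.97 (SE 0.11, adjusted p = 2.42e-10). *Cyp9c1* rose by 2.47 (SE 0.12, adjusted p = 7.54e-08), *Cyp4p2* by 1.73, *Cyp4d14* by 1.35, *Cyp4ad1* by 1.06, *Cyp4d8* by 0.81 and *Cyp310a1* by 0.54. The control and mutant arrays of each of these rises were apart, as for 14.4% of all genes in this direction.

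The falls of P450 genes reached -2.0. *Cyp12c1* read 6.19, 6.44 and 6.29 in control arrays and 4.46, 4.08 and 4.38 in mutant arrays, a difference of -2.0 (SE 0.21, adjusted p = 7.39e-05). *Cyp309a2* fell by 1.41 (SE 0.13, adjusted p = 2.32e-05), *Cyp4aa1* by 1.24 and *Cyp28d1* by 1.03. The last of these is an abundant member, at 8.66, 8.75 and 8.89 in control arrays and 7.63, 7.78 and 7.80 in mutant arrays. Neighbouring duplicates did not all move together. In the *Cyp4p* trio *Cyp4p2* rose by 1.73, while *Cyp4p1* fell by 1.19 and *Cyp4p3* by 0.50. The 3 adjacent *Cyp4ac* genes, by contrast, all fell (between -0.77 and -0.49). Among the *Cyp6a* genes, grouped here by name and not by position, *Cyp6a2* rose by 3.97. The other called members fell, *Cyp6a13* by 0.94 (SE 0.12, adjusted p = 0.000405).

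UDP-glycosyltransferases, which attach a sugar to a small molecule, also had more falls than rises. Of 35 members, 9 fell (25.7%) and 4 rose (11.4%), with a median difference of -0.11, and 7 falls and 2 rises were called whichever array was left out. Without mutant array 6 the rises were 2. *Ugt35b* fell from 7.88, 7.74 and 7.75 to 4.45, 4.65 and 4.70, a difference of -3.19 (SE 0.12, adjusted p = 3.54e-09). Its neighbour *Ugt35a* fell by 0.85 (SE 0.09, adjusted p = 7.64e-05). *CG17324* fell by 2.39 and *CG17322*, next to it, rose by 1.81, from 4.17, 4.47 and 4.37 to 6.16, 6.09 and 6.19. *Ugt36Ba* and *Ugt36Bc*, in the same stretch, fell by 0.97 and 0.85. The mean signal of the family was lower in the mutant, 4.73 to 4.78 per array against 4.96 to 5.06 in control arrays.

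Glutathione S-transferases conjugate glutathione to reactive compounds. Of 38 members, 2 rose and 6 fell, a share of 5.26% and 15.8%, and 1 rise and 2 falls were called whichever array was left out. The falls numbered 2 without control array 3, 3 without mutant array 5 and 2 without mutant array 6. *GstD5* rose from 3.17, 4.05 and 4.40 to 6.81, 6.66 and 6.06, a difference of 2.64 (SE 0.36, adjusted p = 0.000491). *GstZ1*, which also takes part in tyrosine breakdown, fell from 7.07, 6.94 and 7.13 to 6.26, 6.32 and 6.31, and *GstE1* fell by 1.25 (SE 0.27, adjusted p = 0.01). The *GstD* genes are close copies of each other, so the division of signal among them is uncertain.

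**Figure D2:**
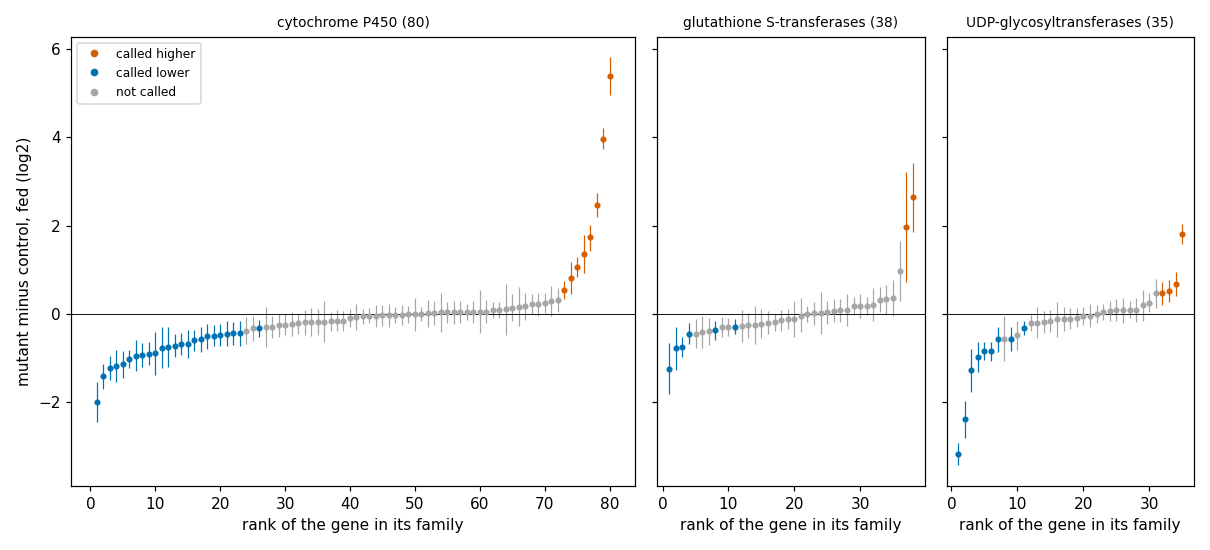
Difference between mutant and control arrays in fed males (log2, dots) with its 95% confidence interval from limma (bars) for each cytochrome P450, glutathione S-transferase and UDP-glycosyltransferase gene, ordered by its difference. In the P450 panel 24 blue dots (called lower) reach -2.0 and 8 orange dots (called higher) reach 5.39.

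Other genes of foreign-compound handling changed in small numbers. Of 18 carboxylesterases, 1 rose (5.56%, against 6.20% of all genes) and 3 fell (16.7%, against 6.26%). The rise and 2 of these falls were called whichever array was left out. *Est-6*, an esterase of the seminal fluid, rose by 0.66 (SE 0.12, adjusted p = 0.00397), and *Est-Q* fell by 0.77 (SE 0.14, adjusted p = 0.00326). Of 18 xenobiotic transporters, 1 rose (5.56%) and 2 fell (11.1%). There was 1 fall without control array 3, mutant array 4 or mutant array 6, and 2 rises without control array 1 or starved mutant array 11. *Oatp58Db*, an organic anion transporter of the Malpighian tubule, fell from 6.14, 6.07 and 6.45 to 3.93, 3.45 and 3.32, a difference of -2.65 (SE 0.17, adjusted p = 1.26e-06), and *MRP*, an ABC exporter of conjugates, rose by 0.65 (SE 0.12, adjusted p = 0.00412). The control and mutant arrays of all 4 genes were apart, as for 28.2% of all genes in either direction.

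Metallothioneins, small proteins that bind copper, zinc and cadmium, had 2 rises and no fall among 5 members, against 6.20% and 6.26% of all genes, and 1 rise, that of *MtnC*, was called whichever array was left out. The rises were 1 without control array 2 or any of the mutant arrays. All 5 members had a positive difference, with a median of 0.57, and the list's mean signal was 6.58 to 6.59 in mutant arrays against 5.37 to 5.78 in control arrays. *MtnC* rose from 6.46, 6.31 and 6.55 to 8.22, 8.36 and 8.35, a difference of 1.87 (SE 0.20, adjusted p = 9.06e-05). *MtnA*, the most abundant member, rose by 0.57 (SE 0.15, adjusted p = 0.0278), and its adjusted p was between 0.0554 and 0.0837 without control array 1 or 2 or any of the mutant arrays 4, 5 and 6. *MtnD* read 7.09, 5.02 and 5.45 in control arrays and 7.99, 7.43 and 7.89 in mutant arrays (adjusted p = 0.0534). *MtnB* differed by 0.56 and *MtnE* by 0.31, with adjusted p-values of 0.383 and 0.509.

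Of 31 metal transporters and ferritins, 2 rose (6.45%) and 1 fell (3.23%), near or below the shares over all genes (6.20% and 6.26%). Of these, 1 rise and no fall were called whichever array was left out. The rises were 1 without control array 2 or 3 or mutant array 4 or 5, and the falls 2 without control array 1 or 2 and none without mutant array 4 or 5. *Zip71B*, a zinc importer, rose by 0.70 (SE 0.11, adjusted p = 0.00108). Of 48 heat shock proteins, peroxidases and thiol reductases, 4 rose (8.33%) and 6 fell (12.5%), and 2 rises and 3 falls were called whichever array was left out. The rises numbered 2 without mutant array 6, and the falls 3 without control array 3 or without mutant array 6. The small heat shock genes were split. *l(2)efl* rose by 0.73 (SE 0.12, adjusted p = 0.00206), while *Hsp67Bc* fell from 5.09, 4.67 and 4.78 to 3.06, 2.84 and 2.90. The peroxidase *CG6888* fell by 1.69 (SE 0.16, adjusted p = 2.34e-05), and the extracellular superoxide dismutase *Sod3* rose by 0.55 (SE 0.09, adjusted p = 0.00242).

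Genes of digestion and of the gut lining changed in both directions. Of 32 midgut serine proteases, which digest dietary protein, 5 rose (15.6%, against 6.20% of all genes) and 3 fell (9.38%, against 6.26%). Of these, 3 of each were called whichever array was left out. The rises were 3 without control array 1, mutant array 5 or mutant array 6. The rises were of the Jonah type or related to it. *Jon65Aii* rose from 4.11, 4.11 and 4.96 to 6.95, 7.23 and 7.41, *Ser6* by 2.17 (SE 0.33, adjusted p = 0.00104) and *Jon44E* by 1.59 (SE 0.25, adjusted p = 0.00136). The falls were of trypsin genes, with *iotaTry* lower by 1.0, *lambdaTry* by 1.03 and *zetaTry* by 0.65. Of 14 amylases and maltases, 3 rose (21.4%) and none fell, and no rise was called in every fit that left out an array. The list leaned lower, with 10 negative and 4 positive differences and a median of -0.17. Its falls were 1 with the 6 fed arrays alone and between 0 and 2 when an array was left out.

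Of 7 lysozymes, which cleave bacterial cell walls and in the gut digest bacteria as food, *LysP* rose from 6.20, 6.05 and 6.44 to 8.83, 8.42 and 8.82, a difference of 2.46 (SE 0.19, adjusted p = 5.45e-06). *LysX* read 4.11, 7.74 and 4.70 in control arrays and 2.86, 3.74 and 3.17 in mutant arrays, so that 1 control array stood well above the others. Its adjusted p was 0.0443, and it was 0.134 with the 6 fed arrays alone and between 0.0522 and 0.127 without any of mutant arrays 4, 5 and 6 or any of the 6 starved arrays. The other 5 lysozymes lay between -0.34 and 0.34 and were not called. These genes are close copies, so the division of signal among them is uncertain.

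The peritrophic matrix is the chitin and mucin sheet that lines the midgut. Of 53 chitin, mucin and peritrophic matrix genes, 7 rose (13.2%) and 6 fell (11.3%), and 5 rises and 3 falls were called whichever array was left out. The falls were 3 without mutant array 5. *Muc4B*, a mucin, rose from 4.30, 3.74 and 3.2 to 6.37, 6.63 and 6.59, a difference of 2.78 (SE 0.26, adjusted p = 2.95e-05). *Muc30E* rose by 0.99 and *Muc68D*, an abundant mucin, by 0.67 (SE 0.08, adjusted p = 0.000191). *Cht9*, a chitinase, rose by 1.14 (SE 0.17, adjusted p = 0.000928), and *Cht3*, another, fell by 0.63 (SE 0.12, adjusted p = 0.00361). *Peritrophin-15a* fell by 1.12 (SE 0.23, adjusted p = 0.00799).

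Of 119 cuticle proteins, 8 rose (6.72%) and 7 fell (5.88%), shares close to those over all genes, and the falls were 4 without mutant array 6. The largest change was in *Cpr67Fb*, which fell from 8.77, 9.05 and 9.25 to 5.64, 5.82 and 5.79, a difference of -3.27 (SE 0.22, adjusted p = 1.38e-06). *Cpr97Eb* rose by 1.54 (SE 0.14, adjusted p = 1.88e-05) and *Cpr66Cb* by 1.14 (SE 0.21, adjusted p = 0.0044). *Cpr62Bb* and *Cpr49Ag* fell by 1.09 and 1.10. All of these genes belong to the large family of chitin-binding cuticle proteins.

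**Figure D3:**
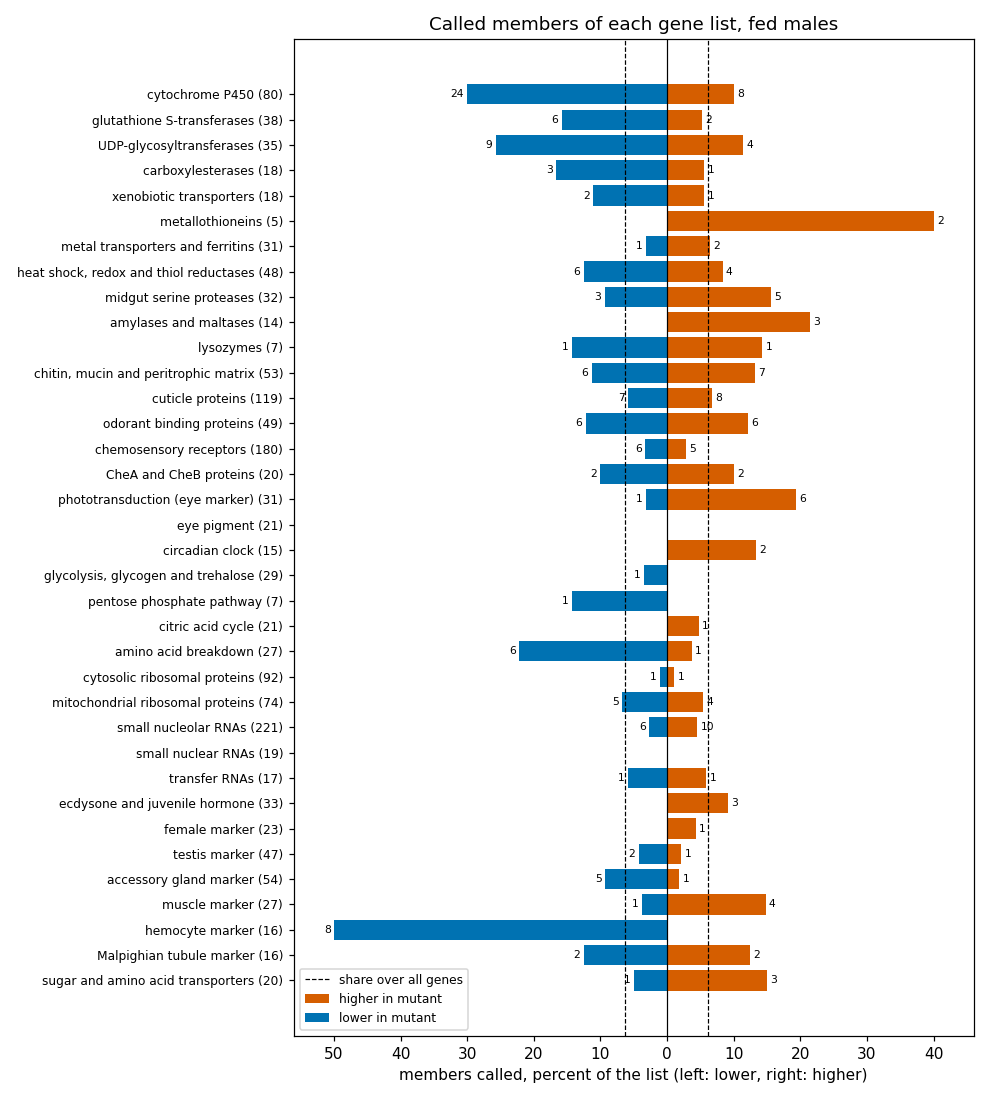
Share of called members (percent of the list) in each of the 36 gene lists, higher in the mutant to the right and lower to the left, with the number of members in parentheses, the number called at each bar and the share over all genes as dashed lines (6.20% and 6.26%). The P450, UDP-glycosyltransferase, amino acid breakdown and hemocyte lists extend farthest beyond the line on the left.

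Odorant binding proteins carry small hydrophobic molecules in the fluid around sensory neurons and in other body fluids. Of 49 members, 6 rose and 6 fell (12.2% each), and 3 rises and 4 falls were called whichever array was left out. The rises were 3 without control array 2, control array 3, mutant array 5 or mutant array 6. *Obp99b* fell from 8.38, 8.43 and 8.84 to 6.0, 5.45 and 5.77, a difference of -2.81 (SE 0.27, adjusted p = 3.09e-05). *Obp56a* fell by 1.38 (SE 0.22, adjusted p = 0.00136). *Obp83a*, an antennal carrier, rose by 0.91 (SE 0.18, adjusted p = 0.00689), and *Obp69a* by 0.81 (SE 0.13, adjusted p = 0.00183). The control and mutant arrays of these 4 genes did not overlap, as for 28.2% of all genes in either direction.

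Of 180 odorant, gustatory and ionotropic receptor genes, 5 rose and 6 fell, shares of 2.78% and 3.33% that were below those over all genes, and most of these genes are near the bottom of the signal range in whole bodies. Only 2 rises, *Or71a* and *Ir41a*, and no fall were called whichever array was left out. The rises were 2 or 3 without control array 2 or 3, mutant array 4 or 6 or starved control array 7, and the falls between 0 and 3 without control array 2 or 3, any mutant array or starved mutant array 10. *Or71a*, an odorant receptor of the maxillary palp, rose from 2.88, 2.92 and 3.09 to 4.07, 3.99 and 3.80, a difference of 0.99 (SE 0.14, adjusted p = 0.000646). Of 20 CheA and CheB genes, a family active in gustatory cells, 2 rose and 2 fell, with 1 fall without control array 3, mutant array 4 or mutant array 5. *CheA75a* rose from 4.33, 4.76 and 4.81 to 6.0, 6.16 and 6.09, and *CheB53b* fell by 0.92 (SE 0.18, adjusted p = 0.00571).

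Phototransduction in the fly eye runs from rhodopsins through a phospholipase C to the TRP and TRPL channels. Of 31 genes of this list, which mark the eye, 6 rose (19.4%) and 1 fell (3.23%), and 25 had a positive difference, with a median of 0.27. Whichever array was left out, 3 rises and no fall were called, and the rises were 3 without control array 3, mutant array 4 or mutant array 6. *trpl*, a channel subunit, rose from 7.23, 6.97 and 6.23 to 8.55, 7.91 and 8.66, a difference of 1.56 (SE 0.32, adjusted p = 0.00793). *Rh5*, a blue-sensitive rhodopsin, rose by 1.35 (SE 0.25, adjusted p = 0.00391), and *Rh2*, the rhodopsin of the ocelli, by 0.58 (SE 0.09, adjusted p = 0.00153). The mean of the list was 7.14 to 7.65 in control and 7.56 to 7.88 in mutant arrays, which overlap, and control array 3 was the lowest for *trpl*. None of 21 eye pigment genes was called by limma, with 2 at an unadjusted p under 0.05. Their mean was 5.91 to 5.99 in control and 5.87 to 5.94 in mutant arrays. Of 15 clock genes 2 rose, or 1 without control array 2 or 3 or any mutant array, among them *takeout* (*to*), a clock-controlled gene tied to feeding, by 1.32 (SE 0.24, adjusted p = 0.00355).

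Amino acid breakdown had 6 falls and 1 rise among 27 genes (22.2% and 3.70%), with a median of -0.15, and 4 falls were called whichever array was left out. *arg*, the arginase that splits arginine to ornithine and urea, fell from 7.16, 6.99 and 7.53 to 6.33, 6.05 and 6.33, a difference of -0.99 (SE 0.13, adjusted p = 0.000368). *Oat*, ornithine aminotransferase, the next step, fell by 0.56 (SE 0.12, adjusted p = 0.00843). *CG6415*, annotated in glycine breakdown, fell by 0.83 (SE 0.11, adjusted p = 0.000494). *Aldh*, the mitochondrial aldehyde dehydrogenase, fell from 9.86, 9.72 and 9.94 to 9.31, 9.35 and 9.23. The rise was that of *Gdh*, glutamate dehydrogenase, by 0.46 (SE 0.10, adjusted p = 0.0134, and 0.0622 without mutant array 6).

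Arginase and ornithine aminotransferase also belong to the KEGG pathway arginine and proline metabolism, which had 12 falls (23.5%) and 3 rises (5.88%) among 51 genes. Of these falls 5 were of prolyl hydroxylases, described below, and 7 were called whichever array was left out. The KEGG pathway glycine, serine and threonine metabolism had 7 falls (26.9%) and 1 rise (3.85%) among 26 genes, of which 3 falls were called whichever array was left out. There *CG10361*, annotated as a glycine acetyltransferase, fell by 0.56 and *CG8129*, a predicted threonine or serine dehydratase, by 0.82 (SE 0.17, adjusted p = 0.00884). Nitrogen metabolism had 4 rises (19.0%) and 3 falls (14.3%) among 21 genes, of which 2 each were called whichever array was left out. *Gs1*, the mitochondrial glutamine synthetase, rose by 0.47 (SE 0.08, adjusted p = 0.00234), and *CG9674*, annotated as glutamate synthase, from 7.25, 7.52 and 7.27 to 8.05, 7.94 and 7.85. Together with *Gdh* these enzymes make or use glutamate. Of the genes that have a KEGG pathway, 4.85% rose and 6.60% fell.

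Genes of the core of energy metabolism were counted beside the shares over all genes, of which 6.20% rose and 6.26% fell. Lists this short would hold few calls at those shares, so the counts do not show that a pathway is unchanged. Of 29 genes of glycolysis, glycogen and trehalose 1 fell (3.45%) and none rose. There was no fall without control array 3 or mutant array 5 or 6, and 1 rise without mutant array 5. Of 21 genes of the citric acid cycle 1 rose (4.76%) and none fell. The rise was that of *Mdh2*, mitochondrial malate dehydrogenase, by 0.47 (SE 0.09, adjusted p = 0.00543). Of 7 genes of the pentose phosphate pathway and NADPH supply, *Men*, malic enzyme, fell by 0.33 (adjusted p = 0.0254, 0.111 with the 6 fed arrays alone, and 0.0574 to 0.0892 without control array 1 or 3 or mutant array 5 or 6). The other 6 genes lay between -0.40 and 0.17, with no call. *Zw*, glucose-6-phosphate dehydrogenase, read 6.52, 6.52 and 6.48 in control and 6.71, 6.65 and 6.66 in mutant arrays (adjusted p = 0.169). In the KEGG pathway of oxidative phosphorylation 4 of 113 genes rose and 5 fell, and no rise and 1 fall were called whichever array was left out. Of all genes with a KEGG pathway, 4.85% rose and 6.6% fell.

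Of 20 sugar and amino acid transporters, 3 rose and 1 fell, and 2 rises and no fall were called whichever array was left out. The rises were 5 without control array 1, and the fall was lost without control array 3 or mutant array 5 or 6. *GC2*, a mitochondrial glutamate carrier, rose by 0.62 (SE 0.09, adjusted p = 0.000765), and *Glut3*, a sugar transporter, by 0.49 (SE 0.08, adjusted p = 0.00255).

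Of 92 cytosolic ribosomal protein genes 1 rose and 1 fell (1.09% each), 75 had a negative difference, and the median was -0.10. Over all 13554 genes 7026 had a negative difference. The mean of the list was 8.78 to 9.06 in control and 8.79 to 8.89 in mutant arrays, which overlap, and control array 1 was the lowest. The falls were 13 without control array 1, and neither the rise nor the fall was called in every fit that left out an array. Of 74 mitochondrial ribosomal protein genes 4 rose (5.41%) and 5 fell (6.76%), with a median of -0.13. The falls were 16 without control array 1, 3 without control array 3 and 3 without mutant array 6. *mRpL37* stood apart from its list, with 5.90, 5.85 and 5.94 in control and 7.86, 7.70 and 7.82 in mutant arrays, a rise of 1.89 (SE 0.09, adjusted p = 3.39e-08).

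Small nucleolar RNAs guide the chemical modification of ribosomal RNA. Of 221 genes 10 rose and 6 fell (4.52% and 2.71%), and the falls were 14 without control array 1 and the rises 5 without mutant array 5. *snoRNA:Psi28S-3186*, a guide for pseudouridine in the large ribosomal RNA, fell from 10.31, 10.61 and 10.60 to 6.36, 5.96 and 6.37, a difference of -4.27 (SE 0.14, adjusted p = 9.91e-10). *snoRNA:Me18S-A469*, a methylation guide for the small ribosomal RNA, rose from 2.31, 1.65 and 3.00 to 4.19, 5.23 and 5.03. On the starved arrays 62 of these genes rose and 4 fell, with a median of 0.44 against -0.01 on the fed arrays. None of 19 small nuclear RNAs was called by limma in fed flies, with 2 at an unadjusted p under 0.05.

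Markers of the tissues in a whole fly were counted beside these families. Hemocytes, the blood cells, had the largest share of falls of any list. Of 16 markers 8 fell and none rose, with a median of -0.35. Whichever array was left out, 7 of the falls were called. *Hml*, hemolectin, a clotting protein that defines plasmatocytes, fell from 6.53, 6.36 and 7.01 to 5.98, 5.48 and 5.33, a difference of -1.04 (SE 0.17, adjusted p = 0.00207). *PPO1* and *PPO2*, the prophenoloxidases of crystal cells that start melanisation, fell by 1.0 and 1.27, and *Ppn*, papilin, a matrix protein, from 7.18, 7.25 and 7.56 to 6.28, 6.22 and 6.23. The mean of the list was 5.10 to 5.38 in control and 4.60 to 4.84 in mutant arrays, which do not overlap.

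The GO term hemolymph coagulation also holds *Hml*, and 4 of its 10 genes fell (40.0%) and none rose, with 3 falls called whichever array was left out. *Npc2h* fell by 0.68 (SE 0.10, adjusted p = 0.00119) and *Npc2g* by 0.70 (SE 0.14, adjusted p = 0.0073). Both encode secreted proteins of the Niemann-Pick type C2 family. All 10 genes of the term had a negative difference, with a median of -0.18.

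The male reproductive markers differed in few members. Of 54 accessory gland genes 5 fell and 1 rose (9.26% and 1.85%), and the falls were 3 without mutant array 4 or mutant array 6. *Sfp33A4* fell from 5.72, 5.73 and 6.66 to 3.81, 4.71 and 3.62, a difference of -1.99 (SE 0.31, adjusted p = 0.00136). *Acp53C14c* fell by 1.91 (SE 0.32, adjusted p = 0.00204), and *Acp54A1* rose by 0.77 (SE 0.17, adjusted p = 0.01). *Sfp79B* read 5.57, 8.38 and 5.93 in the mutant arrays, of which the middle value lay near the control arrays at 9.65, 8.89 and 9.58. Its adjusted p was 0.013, and 0.0553 without mutant array 4 and 0.0615 without mutant array 6. Of 47 testis genes 1 rose (2.13%) and 2 fell (4.26%), below the shares over all genes. The falls were 4 without control array 1 and 1 without control array 3 or mutant array 4 or 6. The rises were 2 without mutant array 4 and none without mutant array 5 or 6. The list had means of 8.23 to 8.48 in control and 8.31 to 8.53 in mutant arrays. Of 23 female markers 1 rose, but not in every fit that left out an array, and their mean was 3.58 to 3.70 in control and 3.57 to 3.72 in mutant arrays.

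Of 27 muscle genes 4 rose (14.8%, against 6.20% of all genes) and 1 fell (3.7%, against 6.26%). None of the rises was called in every fit that left out an array. The rises were 10 without control array 1, none without control array 2, control array 3, mutant array 5 or mutant array 6, and 1 without mutant array 4. *Act88F*, the actin of the indirect flight muscle, fell from 8.12, 7.30 and 7.61 to 6.56, 6.73 and 6.52, a difference of -1.07 (SE 0.19, adjusted p = 0.00259). Of 16 Malpighian tubule markers 2 rose and 2 fell (12.5% each), and no rise and 1 fall were called whichever array was left out. The rises were 4 without control array 1, none without control array 2 or 3 or mutant array 4 or 5, and 1 without mutant array 6. The falls were 1 without control array 1 or 2, any mutant array or starved mutant array 10. Their mean was 6.58 to 6.86 in control and 6.52 to 6.55 in mutant arrays. Whether the make-up of tissues differed, and what part that would have in the results above, was not tested.

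**Figure D4:**
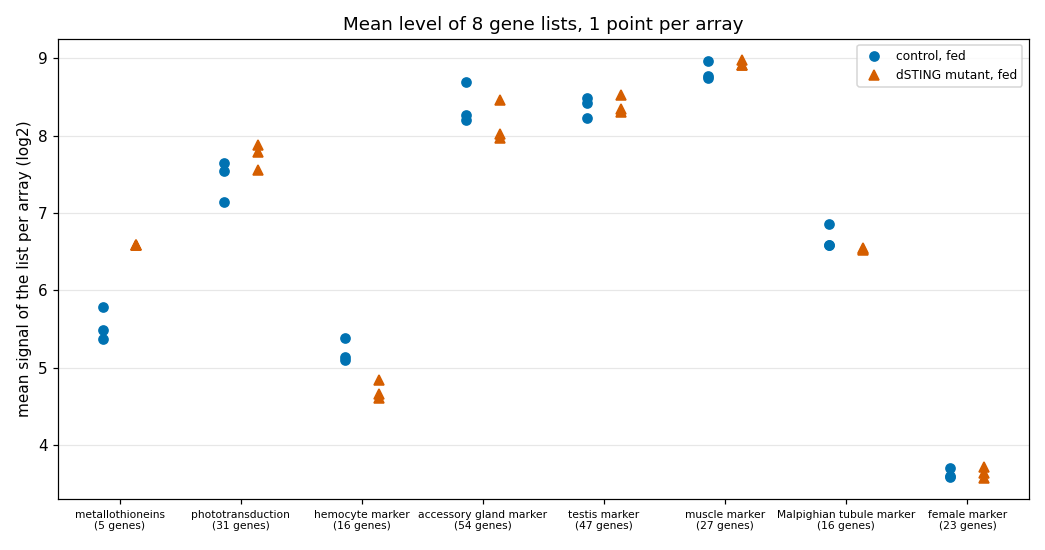
Mean signal (log2) of 8 gene lists in each fed array, with circles for control and triangles for mutant arrays. The metallothionein arrays (5.37 to 5.78 against 6.58 to 6.59) and the hemocyte arrays (5.10 to 5.38 against 4.60 to 4.84) lie apart by genotype, while those of the female and testis lists overlap.

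Beyond the lists, GO and KEGG groups of 10 to 300 genes were ranked by the share of their genes called in each direction. Only groups with at least 4 genes called in that direction were ranked. Groups whose names held words for lipid, immune or neuronal functions were left out. After hemolymph coagulation, the largest shares of falls outside the detoxification families were in groups of prolyl hydroxylases. These enzymes hydroxylate proline in collagen and related proteins and need iron and ascorbate. Of 24 genes with procollagen-proline 4-dioxygenase activity 8 fell (33.3%) and 1 rose (4.17%), and 5 falls and the rise were called whichever array was left out. *PH4alphaMP* fell from 3.86, 3.60 and 3.63 to 2.98, 3.12 and 3.16 (difference -0.61, SE 0.10, adjusted p = 0.00206). *CG31021* fell by 0.91 (SE 0.19, adjusted p = 0.00895), *PH4alphaSG1* by 0.57 and *CG31013*, the most abundant of them, by 0.47. The gene that rose was *CG18233*, from 4.07, 4.59 and 4.61 to 6.12, 6.36 and 6.24, a difference of 1.81 (SE 0.16, adjusted p = 1.76e-05).

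All of these falls were of genes on chromosome arm 3R. *PH4alphaSG1* stands next to *CG15539*, another member of the group, which fell by 0.79. Together with P450 genes the hydroxylases make up most of the 31 falls among 136 genes of the term iron ion binding (22.8%), which had 11 rises (8.09%), and 20 falls and 10 rises were called whichever array was left out. Heme binding had 25 falls (20.3%) and 9 rises (7.32%) among 123 genes, of which 16 and 8 were called whichever array was left out. All but 1 of these falls were of the P450 genes already counted above.

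In the KEGG groups, limonene and pinene degradation had 22 falls (32.8%) and 7 rises (10.4%) among 67 genes, and all but 1 of the falls were P450 genes. Of these, 13 falls and all 7 rises were called whichever array was left out. Of 28 genes of ascorbate and aldarate metabolism 8 fell, 7 of them UDP-glycosyltransferases. *CG3534*, a predicted xylulose kinase of the pentose and glucuronate pathway, fell from 8.07, 7.97 and 8.05 to 7.53, 7.21 and 7.30. *CG4573*, a predicted glutamyl-tRNA synthetase that KEGG places in porphyrin metabolism, fell by 0.79 (SE 0.10, adjusted p = 0.000388).

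The groups with the largest shares of rises were mostly of channels and signalling proteins, with small differences. Acetylcholine-activated channels came first, with 4 rises (40.0%) and no fall among 10 genes. Regulation of Rab protein signal transduction followed, with 4 rises (36.4%) and no fall among 11 genes. In neither group was a rise called in every fit that left out an array. Calcium ion transmembrane transport had 4 rises (33.3%) and no fall among 12 genes. The 2 rises called whichever array was left out were those of *trpl* and *Ca-alpha1T*, a low-voltage calcium channel, which rose by 0.81 (SE 0.18, adjusted p = 0.0107). Cation transport had 7 rises (22.6%) and no fall among 31 genes, and ion transport 8 rises (22.2%) and 1 fall among 36, of which 1 and 2 rises were called whichever array was left out. Among them was *GluRIIA*, a glutamate receptor subunit of the neuromuscular junction, higher by 0.55 (SE 0.10, adjusted p = 0.00308). Transmembrane receptor tyrosine kinase signalling had 4 rises among 11 genes, of which 1 was called whichever array was left out, that of *Sdr*, a secreted decoy of the insulin receptor, which rose from 4.32, 4.11 and 3.70 to 4.94, 4.80 and 4.70. Of the genes with a GO term, 6.08% rose and 6.18% fell.

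Genes of development and of the genome were also among these groups. Wing vein morphogenesis had 8 rises (21.6%) and no fall among 37 genes, of which 2 were called whichever array was left out. *ast*, asteroid, rose by 0.49 (SE 0.09, adjusted p = 0.004), and *salr*, a zinc finger factor of the spalt pair, by 0.37 (SE 0.08, adjusted p = 0.00838, and 0.0665 with the 6 fed arrays alone). Nucleotide excision repair had 4 rises (13.8%) and no fall among 29 genes, of which 2 were called whichever array was left out. Most of its genes leaned the other way, with 20 negative and 9 positive differences and a median of -0.08. *RpA-70*, the large subunit of replication protein A, rose from 7.25, 7.26 and 7.25 to 7.79, 7.64 and 7.73, and *Pole2*, a subunit of DNA polymerase epsilon, by 0.63 (SE 0.12, adjusted p = 0.00432).

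Some large pathways of cell housekeeping held few calls, where 4.85% of all genes with a KEGG pathway rose and 6.6% fell. The KEGG pathway ribosome had 1 rise and 1 fall among 81 genes, ubiquitin mediated proteolysis 4 rises and 1 fall among 90, and ribosome biogenesis 1 fall among 64. Of these, 2 rises and 1 fall of ubiquitin mediated proteolysis were called whichever array was left out. Other large pathways held more calls, such as purine metabolism with 11 rises and 8 falls among 111 genes. Whichever array was left out, 6 of these rises and 2 of these falls were called. The lysosome pathway had 3 rises and 7 falls among 79 genes, of which 1 and 2 were called whichever array was left out. The absence of a call at this number of arrays does not show that a gene is unchanged.

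Called genes lay on every chromosome arm. On arms 2L, 2R, 3L and 3R between 6.09% and 7.09% of genes rose and between 5.36% and 8.41% fell, against 3.77% and 3.10% of 2097 genes on the X. The largest fall, *CG32581*, is itself on the X. Of 13247 pairs of neighbouring genes, 71 had both members higher, 102 both lower and 114 had 1 of each. Runs of 3 or more adjacent genes called in the same direction numbered 6 for rises and 14 for falls. Such runs included *Cyp12c1* with *CG6893*, *Dic4*, a dicarboxylate carrier, and *CG12477* among the falls (between -2.0 and -0.49).

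The starved arrays give the same contrast on other samples, but both contrasts came from the joint limma fit of all arrays. Each gene's fed and starved tests therefore shared a variance estimate, and its calls in the fed and starved states are not independent. The shares called in both states thus cannot be read against the shares over all genes as a separate test. Of the 841 genes higher in fed mutants, 742 (88.2%) had a positive difference on the starved arrays and 390 (46.4%) were also called higher there. Of the 849 lower genes, 786 (92.6%) had a negative difference and 521 (61.4%) were also called lower. Over all genes 50.4% had a positive difference on the starved arrays, where 9.01% were called higher and 10.9% lower. In the opposite direction 5 of the higher and 6 of the lower genes were called. *CG32581* differed by -6.29 there, *CG13675* by -5.16, *Cyp12d1-d* by 6.50, *tRNA:CR30298* by 5.05, *Cyp6a2* by 3.37 and *snoRNA:Psi28S-3186* by -4.46, each with an adjusted p of at most 1.05e-09.

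The genotype difference was also compared between the feeding states. The test of the interaction, in limma, called 180 genes (1.33%), of which 22 were among the rises and 23 among the falls in fed flies. Of the 25 largest rises and the 25 largest falls, 3 genes were among them. *CG13155*, with no annotated function, rose by 2.20 in fed flies and differed by 0.46 in starved flies (interaction adjusted p = 0.00354). *Cpr67Fb* fell by 3.27 in fed and by 1.21 in starved flies (interaction adjusted p = 0.00917). *CG18233* rose by 1.81 in fed and by 0.75 in starved flies (interaction adjusted p = 0.045). All 5 metallothioneins were called higher on the starved arrays, with a median of 1.97, but none of their interactions passed the test.

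**Figure D5:**
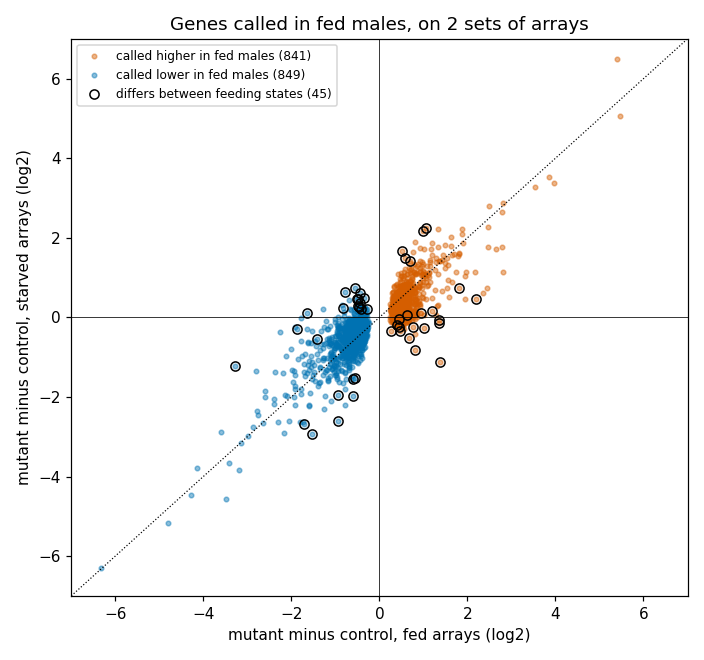
Difference between mutant and control on the starved arrays (log2, vertical) against that on the fed arrays (log2, horizontal) for the 1690 genes called in fed males, with 45 genes that differ between the feeding states circled and the line of equality dotted. Of the 841 rises 742 lie above 0 on the vertical axis, and of the 849 falls 786 lie below it.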

How the data were processed

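Total RNA of whole males was hybridised to 12 Affymetrix Drosophila Gene 1.0 ST arrays, 3 in each of 4 groups (genotype by feeding state). The log2 expression values were made and deposited by the authors, who ran RMA (background correction, quantile normalisation and median polish) over all arrays with affy 1.48.0 in R 3.2.0, giving 1 value for each of 13554 genes from 1.11 to 12.24. Quantile normalisation gives all arrays the same distribution, so a change shared by most genes would not be seen. The genome build is not given in the sources used here. The authors' own comparison columns (fold changes and p-values) were not used.

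The log2 values were fitted in limma 3.58.1 (R 4.3.3) with 1 mean per group over all 12 arrays, and the contrasts were mutant minus control in fed flies, the same in starved flies and their interaction. Benjamini-Hochberg adjustment ran over all genes, with a threshold of 0.05. The fit was tested on simulated data with 200 changed genes. The number of arrays limits the precision.

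The members, the 36 gene lists and the tests were chosen with earlier results of these data known, and the lists were trimmed of entries that a name alone had caught. Genes were named by a rule: *dSTING* and 5 genes on each side, of the called genes without overlap the 25 with the largest differences in each direction, up to 4 called genes per list, group and direction, and all members of lists of 8 or fewer. Further family members and neighbours (*Cyp12d1-p*, *Cyp4p1*, *Cyp4p3*, *Cyp4d8*, *Cyp4d14*, *Cyp310a1*, *Cht9*, *CG6893*, *Dic4* and *CG12477*) were named after their values were seen. GO and KEGG groups are those of the deposited table. Of the Entrez identifiers, 13263 were found in the RefSeq table of the Release 6 assembly, which gave current names, chromosome arms and neighbours. Alternatives were the fed arrays alone, a replicate block, trended and robust variance, array weights, median centring, filters on low values, the values of the sample records, and leaving out each array.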

Additional observations from a re-analysis of the deposited data

Results flagged for a closer look

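For 7 of the genes named above, the genotype difference itself differed between fed and starved males by the interaction contrast in limma, with Benjamini-Hochberg adjustment over all genes. Values are log2 differences, mutant minus control, and the interaction is the starved difference minus the fed one. *CG13155* was at 2.20 in fed and 0.46 in starved flies (interaction -1.75, adjusted p = 0.00354). *Cpr67Fb*, a cuticle protein, was at -3.27 and -1.21 (interaction 2.06, adjusted p = 0.00917). *Or71a*, an odorant receptor, was at 0.99 and 2.16 (interaction 1.17, adjusted p = 0.0134), and *Zip71B*, a zinc importer, at 0.70 and 1.41 (interaction 0.71, adjusted p = 0.0391), so that both were higher in the mutant in either state. *Cyp4d14* was at 1.35 in fed and -0.13 in starved flies (interaction -1.49, adjusted p = 0.0263), and the second difference did not pass the test (adjusted p = 0.695). *Cyp309a2* was at -1.41 and -0.54 (interaction 0.87, adjusted p = 0.0415), and *CG18233*, a prolyl hydroxylase, at 1.81 and 0.75 (interaction -1.06, adjusted p = 0.045).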

How the results depend on the processing

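The call of *dSTING* was kept under every alternative that tested it, with differences from -3.81 to -3.39 when an array was left out. The number of called genes moved more. It was 1690 (841 higher, 849 lower), against 923 (404 and 519) with the 6 fed arrays alone, 319 there at an adjusted p under 0.01, 2745 (1400 and 1345) with array quality weights, and 1003 (532 and 471) among genes above the median level, where fewer genes are tested. Of the calls on the 6 fed arrays, 399 higher and 509 lower genes were also called with all arrays. Leaving out 1 array gave 962 to 2149 calls, 446 to 1087 higher and 516 to 1062 lower, and 778 to 1351 with a change over 1.4-fold against 1020. That last number was 492 among genes above the median level. With the replicate number as a block it was 548 for the 6 fed arrays, since all 548 calls (220 and 328) of that fit passed the fold limit, and the calls were 1000 (440 and 560) with the block in all 12 arrays. Same-numbered samples did not deviate together (r = 0.038, 0.037 and -0.4 across genes). Of the other pairs, control 3 with mutant 2 was at 0.403, control 1 with mutant 3 at 0.392 and control 1 with mutant 2 at -0.41. The rest lay between -0.023 and -0.017. Deviations from a mean of 3 arrays cancel out, so these values cannot settle whether or how the samples were paired. Of the 126 called genes named besides *dSTING*, 88 were called with the block in the 6 fed arrays, 120 with it in all arrays and 122 in the 6 fed arrays without it, none of them with the sign turned. The cause of these shifts was not tested. Of the uncalled genes named, 4 changed sign. *Vamp7* was at -0.04 with array weights, at -0.01 after median centring and between -0.08 and 0.05 when an array was left out. *hebe* was at -0.01 with weights and between -0.04 and 0.08 when an array was left out. *CG1671* was at 0.15 with weights and between -0.24 and 0.11, and *Cyp12d1-p* at 0.01 with weights and between -0.32 and 0.09. Genes near the bottom of the signal range and differences under about 1.4-fold are the least certain at 3 arrays per group.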
